A study of Mus musculus with 15 samples.

Results

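The acyl-CoA thioesterase genes followed here are Acot1, Acot2, Acot3, Acot4, Acot7, Acot8, Acot9, Acot11, Acot12 and Acot13. They were chosen by name, as the rows of the deposited count table whose Ensembl mouse gene ID carries one of these symbols. All 10 were found among the 56980 gene IDs of the table, and all 10 passed the filter on low counts, as members of the 14627 genes tested. The RNA came from snap-frozen livers of wild-type male C57BL/6J mice that ate 1 of 3 diets for 9 months from 15 weeks of age. The control diet held 10% fat, the high-fat diet 60% and the ketogenic diet 89.9%, and each diet had 5 libraries. Control replicate 1 was contaminated according to the submitters and was left out, so 4 control, 5 high-fat and 5 ketogenic libraries were compared. The titles of all libraries also carry the tag ALF, whose meaning is not stated, and the labels name no other treatment. They do not say that each library came from its own mouse, and p-values therefore cover only the spread among these libraries, which may be technical.

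Fatty acids enter metabolism as thioesters of coenzyme A, made by acyl-CoA synthetases. Acyl-CoA thioesterases reverse that step: they split an acyl-CoA into the free fatty acid and coenzyme A, and so set the size of both pools in each compartment of the cell. Type I enzymes (Acot1 to Acot6 in the mouse) are close relatives encoded by neighbouring genes and share an α/β-hydrolase fold. Type II enzymes (here Acot7 to Acot13) are unrelated in sequence to type I and share a hotdog fold. In the liver several type I genes are known targets of PPARα, the nuclear receptor that fatty acids activate.

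The sequences of Acot1 to Acot4 are shown first because they bear on how well reads of these genes can be told apart. Over the aligned coding sequence Acot1 and Acot2 matched at 95.6% of bases, Acot1 and Acot3 at 84.0%, and Acot1 and Acot4 at 76.6%. The stretch below covers bases 134 to 193 of the Acot1 coding sequence, 5′ to 3′, from GENCODE transcripts on GRCm38, with capitals for bases unlike Acot1.
Acot1: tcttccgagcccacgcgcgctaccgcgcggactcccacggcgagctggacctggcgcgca
Acot2: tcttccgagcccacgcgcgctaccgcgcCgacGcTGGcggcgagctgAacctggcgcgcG
Acot3: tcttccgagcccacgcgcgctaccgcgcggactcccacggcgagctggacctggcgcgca
Acot4: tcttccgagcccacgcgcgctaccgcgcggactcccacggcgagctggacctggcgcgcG
Acot3 was identical to Acot1 over these 60 bases, Acot4 differed at 1 base and Acot2 at 7. This order is not that of the whole aligned coding sequence, where Acot2 was the closest to Acot1, at 95.6%. The stretch is therefore not typical of the whole, and likeness should be read from the percentages and not from it. Of all distinct 50-base windows in its transcripts, Acot2 shared 27.7% with some other gene, Acot1 19.2%, Acot3 19.1% and Acot4 4.53%. With 100-base windows these shares were 17.1%, 12.4%, 13.8% and 0.336%. Acot9 shared 15.2% of its 50-base windows, all with Acot10, and 0.705% of its 100-base windows, while Acot7, Acot8, Acot11, Acot12 and Acot13 shared none at either length. The sources used here do not say how reads matching several genes were counted. Counts of Acot1, Acot2 and Acot3 are therefore uncertain to the extent that reads fell in shared stretches.

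The 4 type I genes lie together on chromosome 12, on the same strand, and their promoters are shown because all 4 genes rose on both fat-rich diets. The 250 bases before each start come from RefSeq on GRCm38.p6, plus strand, 5′ to 3′, with capitals for AGGTCA or its reverse complement TGACCT, the core that PPAR and its partner RXR recognise.
Acot2 (chr12:83987611-83987860): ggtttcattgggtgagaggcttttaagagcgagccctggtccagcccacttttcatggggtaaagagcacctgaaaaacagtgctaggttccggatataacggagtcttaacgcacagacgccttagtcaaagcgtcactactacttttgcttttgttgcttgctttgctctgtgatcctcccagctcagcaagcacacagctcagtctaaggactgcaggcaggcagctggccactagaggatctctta
Acot1 (chr12:84009252-84009501): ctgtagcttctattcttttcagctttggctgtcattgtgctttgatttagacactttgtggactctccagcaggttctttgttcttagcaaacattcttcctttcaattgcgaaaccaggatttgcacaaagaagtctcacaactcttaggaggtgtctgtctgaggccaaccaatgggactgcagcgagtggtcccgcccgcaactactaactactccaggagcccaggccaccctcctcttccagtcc
Acot4 (chr12:84038129-84038378): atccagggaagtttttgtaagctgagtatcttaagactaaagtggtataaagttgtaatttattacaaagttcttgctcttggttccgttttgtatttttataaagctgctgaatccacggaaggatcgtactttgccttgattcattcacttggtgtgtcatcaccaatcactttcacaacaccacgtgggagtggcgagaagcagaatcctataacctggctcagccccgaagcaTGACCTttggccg
Acot3 (chr12:84051894-84052143): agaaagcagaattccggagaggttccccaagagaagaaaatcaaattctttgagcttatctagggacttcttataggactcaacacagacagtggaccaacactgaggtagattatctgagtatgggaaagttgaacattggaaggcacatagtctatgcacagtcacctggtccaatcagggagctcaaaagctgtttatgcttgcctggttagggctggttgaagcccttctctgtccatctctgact
Promoter windows of 300 bases, 250 before and 50 after a start, were found for 9 of the 10 genes (11 windows), and both strands were searched. AGGTCA occurred in windows of 3 genes: 13 bases before the Acot4 start, 110 bases before the Acot12 start, and 19 bases after the first Acot3 start. It occurred in 16.3% of all 32851 promoter windows of the same length. The DR1 repeat, made of this core, a spacer base and the core again, occurred in no window of these genes and in 0.0396% of all windows. These are matches of letters and not binding sites, and nothing was measured at the promoters.

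Total counts of the 14 libraries ran from 16329425 to 25349148. Levels below are CPM, a gene's counts divided by its library's total after TMM scaling. Summed levels of cell type markers are the exception: they are CPM on library totals without TMM scaling, so they are not on the scale of the gene levels. A mean with ± stands beside its SD (n = 4 for control, n = 5 for each fat-rich diet). Log2 fold changes come with their SE and with adjusted p from the quasi-likelihood test of edgeR (Benjamini-Hochberg method, all 14627 genes), and 0.05 was the threshold. Of 10 hepatocyte markers none was called higher on either fat-rich diet, and Cps1 on both and Ass1 on the ketogenic diet were called lower. Their summed level ran from 124510 to 147770 CPM on control, 98284 to 120950 CPM on high-fat and 84181 to 117460 CPM on ketogenic diet. In bulk liver, fewer cells of a type and less RNA per cell cannot be told apart. A pair of libraries stood apart on the first principal components of all genes: high-fat replicate 1, at -15.7 where the other high-fat libraries lay between 17.6 and 34.6 on the first, and ketogenic replicate 5, at 26.2 where the other ketogenic libraries lay between -51.9 and -23.3 on the second. Called fold changes are given with and without them. Of 7 stellate cell and fibroblast markers, summing to 256 to 291 CPM on control, 352 to 501 CPM on high-fat and 292 to 836 CPM on ketogenic diet, 2 were called higher on high-fat (Dcn and Pdgfrb) and 3 on ketogenic diet (Col3a1, Col1a1 and Pdgfrb). Of 6 adipocyte markers 5 were tested, and of these 1 was called higher on high-fat (Cidea) and 2 on ketogenic diet (Cidea and Cfd). The sum of all 6 ran from 2.73 to 17.2 CPM on control, 32.3 to 119.8 CPM on high-fat and 36.6 to 192 CPM on ketogenic diet. The median log2 fold change of the 5 was 1.62 on high-fat and -0.064 on ketogenic diet, so the higher ketogenic sum did not hold for most of them. The 5 cholangiocyte markers summed to 26.9 to 45.6 CPM on control, 55.1 to 97.2 CPM on high-fat and 30.6 to 244 CPM on ketogenic diet, and none of them was called on either diet. Their median log2 fold change was -0.18 on high-fat and 0.099 on ketogenic diet, so the higher high-fat sum did not hold for most of them. Spp1 is also among the markers of lipid-associated and monocyte-derived macrophages given below, so the 2 sums are not separate. None of these markers was at 0 in all libraries of a diet, and their part in the thioesterase results was not tested.

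On the high-fat diet 6 of the 10 thioesterase genes rose against control (Acot1, Acot2, Acot3, Acot4, Acot8 and Acot13) and none fell. Among all genes tested 12% were called in that comparison, 6.95% higher and 5.01% lower. On the ketogenic diet 5 rose (Acot1, Acot2, Acot3, Acot4 and Acot8) and Acot11 fell, where 12.1% of all genes were called, 7.47% higher and 4.6% lower. Between the ketogenic and high-fat diets edgeR's test called none of the 10, against 0.0615% (9) of all genes, 0.00684% higher and 0.0547% lower. At an unadjusted p under 0.05 it picked 2 of the 10 there, Acot11 and Acot13, against 8.7% of all genes, and DESeq2 also called 0. An unadjusted p under 0.05 was reached by 7 of the 10 on high-fat and by 9 on ketogenic diet, against 27.4% and 28% of all genes. The median log2 fold change of the 10 genes was 0.66 for high-fat against control and 0.84 for ketogenic against control, beside medians of 0.0075 and 0.031 over all genes tested. For ketogenic against high-fat it was -0.058, beside 0.022.

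**Figure D1:**
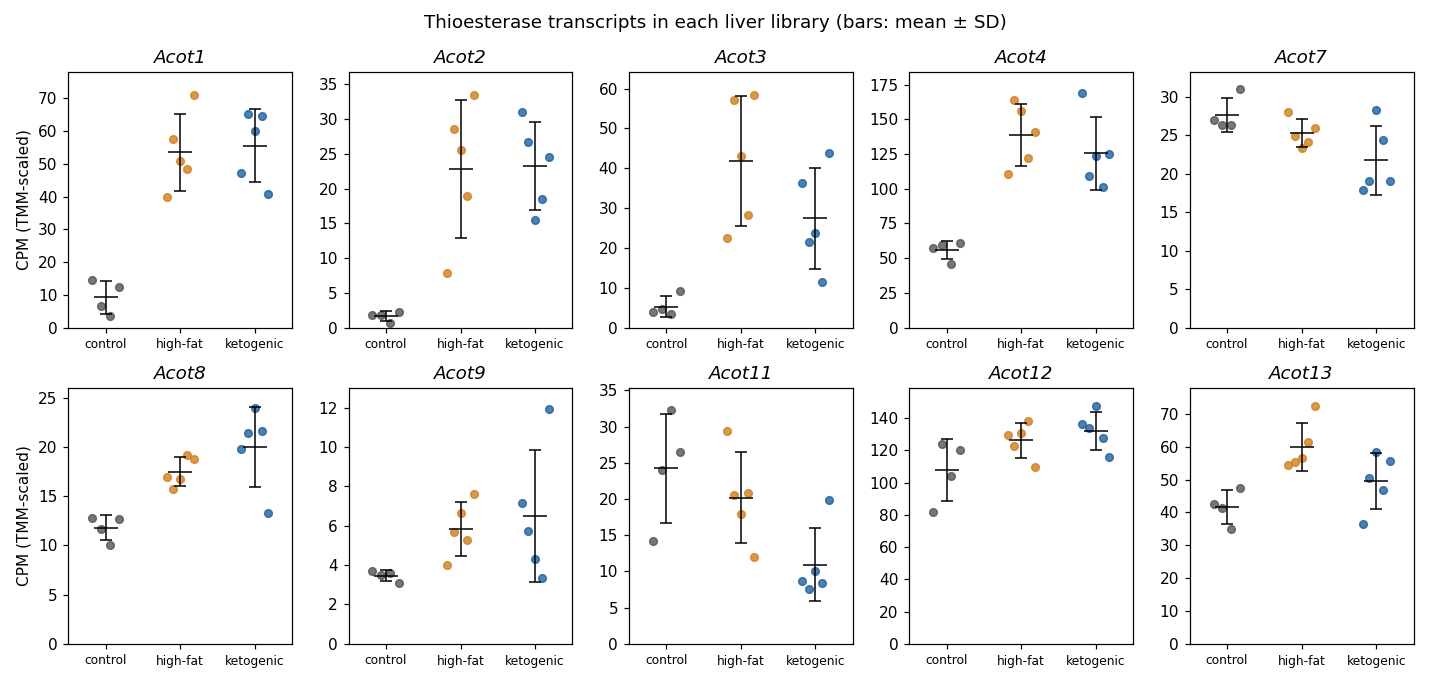
CPM after TMM scaling (y axis, from 0, a separate scale for each gene) of the 10 thioesterase genes in each library, by diet (x axis). Points are libraries, 4 control, 5 high-fat and 5 ketogenic, and bars give mean ± SD. For Acot1 to Acot4 all points of both fat-rich diets lie above all control points.

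Acot2, the type I enzyme of the mitochondrial matrix, which acts on long-chain acyl-CoAs, showed the largest fitted change of the family on both diets. Control livers held 1.87, 1.78, 0.615 and 2.28 CPM of Acot2 in replicates 2 to 5. High-fat livers held 7.80, 28.6, 25.6, 18.99 and 33.4 CPM in replicates 1 to 5, and ketogenic livers 31.1, 26.8, 15.5, 18.5 and 24.6 CPM. No library of a fat-rich diet overlapped the controls, and high-fat replicate 1 was the lowest of the 10 fat-rich libraries. The mean moved from 1.64 ± 0.716 CPM to 22.9 ± 9.92 CPM on high-fat and 23.3 ± 6.31 CPM on ketogenic diet. These were log2 fold changes of 3.81 ± 0.44 (adjusted p = 0.000175) and 3.84 ± 0.44 (adjusted p = 0.000115). Without high-fat replicate 1 the first was 4.03, and without ketogenic replicate 5 the second was 3.80.

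Acot1 is the cytosolic relative that shares most of its sequence with Acot2. Its control libraries held 14.5, 6.67, 3.43 and 12.3 CPM. High-fat livers held 39.8, 57.6, 50.8, 48.3 and 71.0 CPM, and ketogenic livers 47.2, 65.3, 59.9, 64.8 and 40.8 CPM. The groups did not overlap, with 14.5 CPM as the highest control value and 39.8 CPM as the lowest on a fat-rich diet. Acot1 rose from 9.24 ± 5.10 CPM to 53.5 ± 11.7 CPM on high-fat diet (log2 fold change 2.54 ± 0.33, adjusted p = 0.000386) and to 55.6 ± 11.03 CPM on ketogenic diet (2.59 ± 0.33, adjusted p = 0.000214). The fold change was 2.63 without high-fat replicate 1 and 2.67 without ketogenic replicate 5.

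Acot3 and Acot4 are the peroxisomal members of type I measured here. Acot3 acts on medium and long-chain acyl-CoAs, and its control libraries held 4.02, 4.68, 3.28 and 9.08 CPM. High-fat livers held 22.4, 57.1, 43.2, 28.3 and 58.3 CPM, and ketogenic livers 36.3, 21.6, 23.8, 11.5 and 43.8 CPM. All 10 libraries of the fat-rich diets lay above the controls, the nearest being ketogenic replicate 4 at 11.5 CPM. Acot3 rose from 5.26 ± 2.61 CPM to 41.9 ± 16.4 CPM on high-fat diet (log2 fold change 2.99 ± 0.45, adjusted p = 0.000964) and to 27.4 ± 12.7 CPM on ketogenic diet (2.38 ± 0.44, adjusted p = 0.00306). Without high-fat replicate 1 the high-fat value was 3.15, and without ketogenic replicate 5 the ketogenic value was 2.13. This gene's calls depended on leaving out the contaminated control: with control replicate 1 included they fell to log2 fold changes of 1.64 (adjusted p = 0.134) and 1.03 (adjusted p = 0.337).

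Acot4 splits succinyl-CoA and dicarboxylyl-CoAs, short products of peroxisomal oxidation. Per kilobase of exon it was the most abundant type I transcript on every diet. Control libraries held 57.4, 59.3, 46.1 and 60.8 CPM, high-fat libraries 110.5, 164, 156, 122 and 141 CPM, and ketogenic libraries 169, 109, 124, 101 and 125 CPM. No library of a fat-rich diet fell below 101 CPM and no control exceeded 60.8 CPM. The mean of Acot4 rose from 55.9 ± 6.65 CPM to 139 ± 22.5 CPM on high-fat diet (log2 fold change 1.31 ± 0.16, adjusted p = 0.000172) and to 126 ± 26.4 CPM on ketogenic diet (1.17 ± 0.16, adjusted p = 0.000236). These were 1.38 without high-fat replicate 1 and 1.15 without ketogenic replicate 5. Its rise was thus smaller on the log2 scale than those of Acot1, Acot2 and Acot3, from a higher control level, a difference between genes that was not tested. In GENCODE both Acot3 and Acot4 overlap Gm49366 on the same strand, which had 0 counts in all libraries, and an antisense transcript with at most 5 counts.

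**Figure D2:**
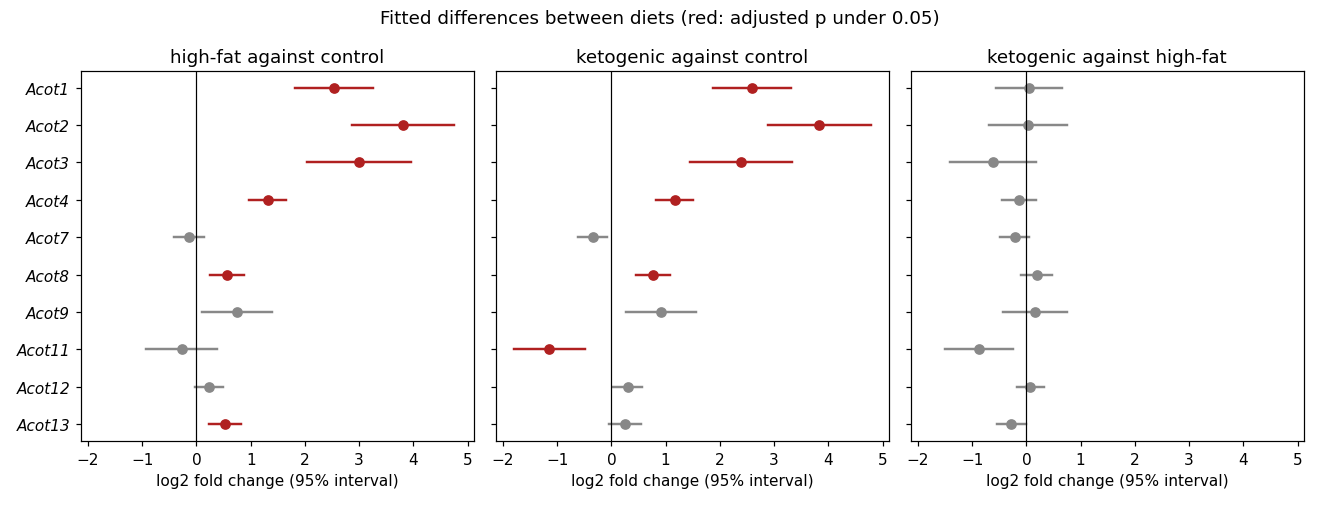
Fitted log2 fold changes (x axis) of the 10 genes (y axis) in 3 comparisons, with 95% intervals as bars; red marks an adjusted p under 0.05. Acot1 to Acot4 and Acot8 are red in both comparisons with control, Acot13 only in high-fat, Acot11 only in ketogenic against control, and no gene is red in ketogenic against high-fat.

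Acot8, the type II thioesterase of peroxisomes, which acts on acyl-CoAs of many chain lengths and on bile acid CoA esters, rose on both diets by less. Control livers held 12.8, 11.7, 10.1 and 12.7 CPM, high-fat livers 17.0, 15.7, 16.7, 19.2 and 18.8 CPM, and ketogenic livers 19.8, 21.4, 23.95, 21.6 and 13.3 CPM. Every fat-rich library lay above the highest control, ketogenic replicate 5 by the least. Acot8 rose from 11.8 ± 1.25 CPM to 17.5 ± 1.47 CPM on high-fat diet (log2 fold change 0.57 ± 0.15, adjusted p = 0.0207) and to 20.004 ± 4.06 CPM on ketogenic diet (0.76 ± 0.15, adjusted p = 0.00328). Without high-fat replicate 1 the high-fat value was 0.58 (adjusted p = 0.0252), and without ketogenic replicate 5 the ketogenic value was 0.86 (adjusted p = 9.42e-05). The high-fat call was lost without high-fat replicate 4 (adjusted p = 0.0536), control replicate 3 (0.0607) or control replicate 4 (0.0825). Acot8 overlaps Snx21 on the opposite strand, which held 6.18 ± 0.673 CPM in controls and was not called on high-fat (log2 fold change 0.33 ± 0.15, adjusted p = 0.163) or ketogenic diet (0.24 ± 0.15, adjusted p = 0.292). The library kit keeps strand, but the sources used here do not give the strand setting of the counting.

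Acot13, also known as Them2, is a small hotdog enzyme that binds the phosphatidylcholine transfer protein Pctp. Control livers held 42.6, 41.3, 34.9 and 47.6 CPM, high-fat livers 54.3, 55.4, 56.7, 61.3 and 72.3 CPM, and ketogenic livers 36.5, 50.5, 58.3, 46.7 and 55.5 CPM. The high-fat libraries all lay above the controls, whereas the ketogenic libraries overlapped them. Acot13 rose from 41.6 ± 5.20 CPM to 60.0 ± 7.35 CPM on high-fat diet (log2 fold change 0.53 ± 0.14, adjusted p = 0.0213), and reached 49.5 ± 8.53 CPM on ketogenic diet (0.25 ± 0.14, adjusted p = 0.247). Without high-fat replicate 1 the high-fat value was 0.56 (adjusted p = 0.0190). The call was lost without high-fat replicate 5 (adjusted p = 0.0555), control replicate 3 (0.0587) or control replicate 4 (0.0863). Between the fat-rich diets its difference, ketogenic minus high-fat, was -0.28 (95% interval -0.55 to -0.0044, adjusted p = 0.559), so the call in 1 comparison and not in the other is not a shown difference between diets.

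Acot11, also known as Them1, pairs hotdog domains with a START lipid-binding domain and is best known from brown fat. It was the only member called lower in any comparison. Control livers held 14.2, 24.03, 32.3 and 26.5 CPM, high-fat livers 29.4, 20.5, 17.998, 20.9 and 11.99 CPM, and ketogenic livers 8.70, 7.58, 10.1, 8.45 and 19.9 CPM. Ketogenic replicates 1 to 4 lay below all controls, and ketogenic replicate 5 lay within the control range. From 24.3 ± 7.56 CPM, Acot11 fell to 10.95 ± 5.09 CPM on ketogenic diet (log2 fold change -1.14 ± 0.31, adjusted p = 0.0257), and stood at 20.2 ± 6.28 CPM on high-fat diet (-0.27 ± 0.31, adjusted p = 0.612). Without ketogenic replicate 5 the ketogenic value was -1.50 (adjusted p = 0.00131). The call was lost when control replicate 3 (adjusted p = 0.0549), 4 (0.0914) or 5 (0.0648), or ketogenic replicate 1 (0.0647), 2 (0.0594) or 4 (0.0515), was left out. Against high-fat the ketogenic difference was -0.87 (95% interval -1.50 to -0.25, adjusted p = 0.345), and it was called without ketogenic replicate 5 (-1.21, adjusted p = 0.0205).

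Acot9 is a mitochondrial hotdog enzyme. Control livers held 3.68, 3.51, 3.59 and 3.08 CPM, high-fat livers 3.99, 5.69, 6.67, 5.26 and 7.61 CPM, and ketogenic livers 7.17, 5.75, 4.29, 3.35 and 11.9 CPM. Every high-fat library lay above the controls, and ketogenic replicate 5 held the highest value of all. Its means were 3.46 ± 0.263 CPM on control, 5.84 ± 1.38 CPM on high-fat and 6.50 ± 3.37 CPM on ketogenic diet, and neither difference passed the threshold (log2 fold changes 0.75 ± 0.30, adjusted p = 0.119, and 0.91 ± 0.30, adjusted p = 0.0628). The ketogenic value was 0.55 (adjusted p = 0.141) without replicate 5. The high-fat value was called when that ketogenic library was left out of the shared fit (0.74, adjusted p = 0.0316), and the ketogenic value without ketogenic replicate 3 (adjusted p = 0.0336) or 4 (0.0205). The 8 markers of lipid-associated and monocyte-derived macrophages summed to 92.6 to 170 CPM on control, 210 to 383 CPM on high-fat and 116 to 949 CPM on ketogenic diet, with ketogenic replicate 5 at 949 CPM and none of the 8 at 0 in all libraries of a diet. On high-fat diet 1 of the 8 was called higher (Gpnmb) and on ketogenic diet 2 (Gpnmb and Trem2). The 8 markers of Kupffer cells, the resident macrophages, summed to 286 to 457 CPM on control, 364 to 630 CPM on high-fat and 267 to 974 CPM on ketogenic diet. None of these Kupffer cell markers was called higher on either diet, and Timd4 was called lower on ketogenic diet. The part of both marker lists in the Acot9 values was not tested.

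Acot12 and Acot7 are cytosolic and did not pass the threshold. Acot12 splits acetyl-CoA and is a liver enzyme with a START domain. Its control libraries held 82.1, 124, 104 and 120.4 CPM, high-fat libraries 129, 123, 131, 138 and 109.9 CPM, and ketogenic libraries 136, 134, 148, 127 and 116 CPM. The groups overlapped on both diets, and control replicate 2 held the lowest value. That library also had the highest sum of 10 pancreatic acinar markers, 1514 CPM where the other controls had 24.7 to 142 CPM, and the part of this in its Acot12 value was not tested. Acot12 averaged 108 ± 19.2, 126 ± 10.7 and 132 ± 11.8 CPM on the control, high-fat and ketogenic diets (log2 fold changes against control 0.23 ± 0.12, adjusted p = 0.250, and 0.30 ± 0.12, adjusted p = 0.132). Without control replicate 2 these fold changes were 0.12 (adjusted p = 0.536) and 0.18 (adjusted p = 0.297). An antisense transcript that overlaps Acot12 had 10 to 62 counts.

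Acot7 acts on long-chain acyl-CoAs such as arachidonoyl-CoA and is best known from the brain. Control livers held 27.0, 26.3, 26.4 and 31.0 CPM, high-fat livers 28.1, 24.9, 23.3, 24.1 and 26.0 CPM, and ketogenic livers 17.95, 19.03, 28.3, 24.4 and 19.1 CPM. Ketogenic replicates 1, 2, 4 and 5 lay below all controls and replicate 3 among them. The log2 fold change of Acot7 was -0.13 ± 0.13 on high-fat (adjusted p = 0.554) and -0.35 ± 0.13 on ketogenic diet (adjusted p = 0.0923), and the latter passed without ketogenic replicate 3 (-0.46, adjusted p = 0.0134).

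**Figure D3:**
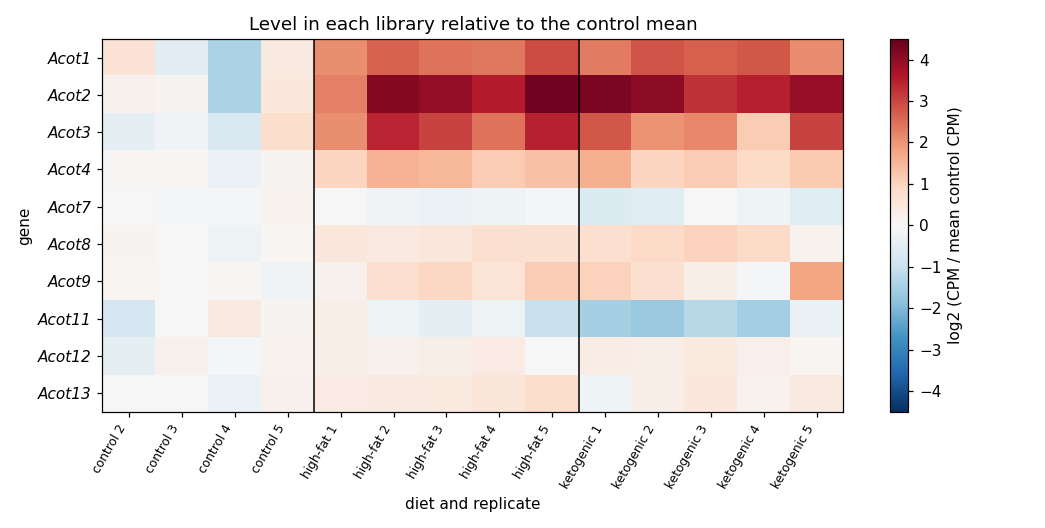
Log2 of each library's CPM over the mean control CPM (colour, blue below and red above the control mean) for the 10 genes (rows) and 14 libraries (columns, ordered by diet and replicate, with lines between diets). Red is darkest in rows Acot1 to Acot3 across both fat-rich diets. High-fat replicate 1 is paler than the other high-fat libraries for Acot2, and Acot11 is blue in ketogenic replicates 1 to 4.

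The high-fat and ketogenic diets could be compared directly. For Acot1 the difference, ketogenic minus high-fat on the log2 scale, was 0.05 (95% interval -0.55 to 0.66), for Acot2 0.03 (-0.69 to 0.74), for Acot4 -0.14 (-0.45 to 0.17) and for Acot8 0.19 (-0.10 to 0.48). For Acot3 it was -0.61 (-1.40 to 0.18), for Acot9 0.16 (-0.43 to 0.74), for Acot7 -0.22 (-0.48 to 0.04) and for Acot12 0.07 (-0.18 to 0.32). No member passed the threshold, and these intervals do not show that the diets acted alike. In CPM no member separated the libraries of these diets without overlap, against 1.76% of all genes tested. Against control 7 of the 10 separated on high-fat diet, where 16.2% of all genes did, and 5 on ketogenic diet, where 12.5% did.

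Type I genes made up a larger part of the family on both fat-rich diets. Summed over the 10 genes the level was 288.6 ± 31.4 CPM on control, 512.0 ± 46.8 CPM on high-fat and 473.0 ± 32.0 CPM on ketogenic diet, and sums were not tested. Acot1 to Acot4 made up 24.97 ± 4.06% of the family's counts on control, 49.7 ± 6.65% on high-fat and 48.9 ± 4.23% on ketogenic diet. The highest control library had 29.9% and the lowest on a fat-rich diet 40.8%. The other 6 genes summed to 216.5 ± 25.9, 254.9 ± 10.5 and 241.0 ± 18.3 CPM, so most of the higher total lay in type I.

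Levels of different genes were compared as CPM per kilobase of merged GENCODE exons. On this scale Acot13 and Acot12 led on every diet, with 55.9 ± 6.99 and 32.7 ± 5.82 on control. Acot2 was the last of the 10 on control at 0.745 ± 0.326, the 7th on high-fat at 10.4 ± 4.52 and the 5th on ketogenic diet at 10.6 ± 2.87. Acot1 moved from 7th at 2.36 ± 1.30 to 4th on both fat-rich diets (13.7 ± 2.98 and 14.2 ± 2.81). Acot11 moved the other way, from 6th at 4.01 ± 1.25 to 9th at 3.33 ± 1.04 and 10th at 1.81 ± 0.841. Much of this order lies within the spread. On control the range of Acot1 overlapped those of Acot2, Acot3, Acot9 and Acot11, and Acot2, which reached 1.04, overlapped Acot3. On high-fat diet the ranges of Acot1, Acot3, Acot7 and Acot2 overlapped, and on ketogenic diet those of Acot2, Acot7, Acot8 and Acot3. On both fat-rich diets Acot1 overlapped Acot4, and Acot11 overlapped Acot9.

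**Figure D4:**
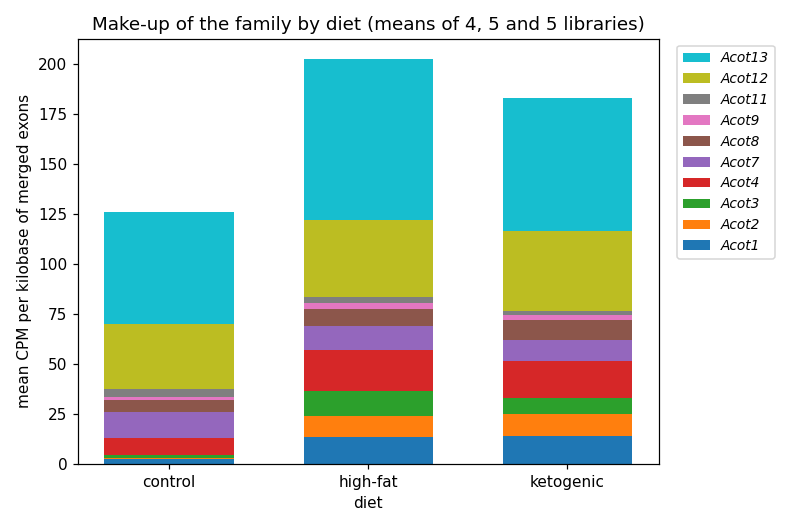
Mean CPM per kilobase of merged exons (y axis, from 0) of the 10 genes, stacked for each diet (x axis; means of 4, 5 and 5 libraries, with no error shown). The segments of Acot1 to Acot4 together make up 10.3% of the control bar, 27.9% of the high-fat bar and 28.3% of the ketogenic bar, as means of the shares in each library.

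Ratios between type I genes were also taken within each library. The ratio of Acot2 to Acot1 per kilobase within a library was 0.339 ± 0.102 on control, 0.735 ± 0.229 on high-fat and 0.791 ± 0.325 on ketogenic diet, and its ranges overlapped, with 0.477 as the highest control value and 0.350 (high-fat replicate 1) and 0.461 as the lowest on the other diets. For Acot3 over Acot4 the ratio was 0.179 ± 0.0743, 0.572 ± 0.168 and 0.415 ± 0.166. Its highest control value was 0.290, below the lowest high-fat value of 0.393 and above the lowest ketogenic value of 0.221. Both ratios rest on the counts of genes with shared stretches and were not tested.

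Across the 14 libraries, Pearson's r of log2 CPM between type I genes was 0.96 for Acot2 with Acot4 and for Acot3 with Acot4, 0.95 for Acot1 with Acot2, 0.92 for Acot2 with Acot3, 0.89 for Acot1 with Acot4 and 0.85 for Acot1 with Acot3. With each diet's mean removed these were 0.72, 0.77, 0.63, 0.71, 0.26 and 0.22, so Acot1 was the least like Acot3 and Acot4 within diets. Acot11 ran against Acot8, with r of -0.76 and of -0.70 with diet means removed, and against Acot1 (-0.63 and -0.69). These are descriptions over libraries that share their diets, scaling and depth.

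The genes most like each member over the 14 libraries, by Pearson's r of log2 CPM, fell among fatty acid genes for several. Acot1 was closest to Fabp2, a fatty acid binding protein (r = 0.985, and 0.928 with diet means removed). The neighbours of Acot2 were Rtn4 and Cyp4a10, a fatty acid omega-hydroxylase, both at 0.981, and the fatty acid transporter Cd36, also 0.981. Cd36 was the closest gene to Acot4 (0.966). For Acot8 the 5 closest genes were Ech1 and Acaa1a (0.977 each), Acsf3 and Acads (0.973 each) and Eci1 (0.970). Of these Ech1, Acaa1a, Acads and Eci1 encode enzymes of fatty acid oxidation, and Acsf3 belongs to the acyl-CoA synthetases. Acot12 was closest to Cpt1a (0.898), which starts mitochondrial fatty acid import.

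The other members had other neighbours. Acot3 was closest to the cytochromes Cyp2c38 and Cyp2c39 (0.980 each). Acot9 was closest to Clcf1 (0.970) and to Ccr2 (0.965), a monocyte receptor. Ccr2 is 1 of the 8 markers of lipid-associated and monocyte-derived macrophages above. Acot11 was closest to Lrtm1 (0.910), the glycerol-phosphate acyltransferase Gpat4 (0.904) and fatty acid synthase, Fasn (0.903). The neighbours of Acot7 were Pgp (0.953) and the urea cycle enzymes Arg1 (0.947) and Asl (0.937), and that of Acot13 was Colec11 (0.935). With Spearman's rho, 1 to 3 of the 5 closest genes stayed among the 5 for each member. Cd36 dropped out for Acot4 (Nqo1 stayed), Cyp4a10 and Cd36 for Acot2 (Rtn4 and Rab30 stayed) and Cpt1a for Acot12 (D2hgdh stayed). Of the other genes named, Ech1, Acsf3 and Eci1 dropped out for Acot8, Clcf1 for Acot9, Fasn for Acot11, and Pgp and Asl for Acot7.

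Other members of the family were sparse. Acot6, a peroxisomal relative, rose from 0.420 ± 0.113 CPM to 1.23 ± 0.505 CPM on high-fat diet (log2 fold change 1.55 ± 0.36, adjusted p = 0.0118) and to 2.11 ± 0.560 CPM on ketogenic diet (2.31 ± 0.36, adjusted p = 0.000576), with 5 to 60 counts in a library. Acot5 had 16 counts and Acot10 8 counts in all 14 libraries together, too few to test. Among 13 tested genes of other thioesterases and bile acid or N-acyl transferases 3 rose on high-fat diet (Ppt1, Acot6 and Acnat2) and 2 on ketogenic diet (Acot6 and Ppt1), and none fell. Their median log2 fold changes were 0.13 and 0.02.

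The counts of the pathway lists are set beside the shares of all genes called, 6.95% higher and 5.01% lower on high-fat and 7.47% higher and 4.6% lower on ketogenic diet. Shares of a list near these are no result about the list, and no list was tested as a set. Of 19 acyl-CoA synthetases tested 6 rose and 1 fell on high-fat diet, and 7 rose and 4 fell on ketogenic diet. Acss3, a mitochondrial short-chain synthetase, rose from 4.46 ± 3.08 to 48.4 ± 15.8 CPM on high-fat diet (log2 fold change 3.44 ± 0.42, adjusted p = 0.000323), and was also called higher on ketogenic diet. Aacs, which activates acetoacetate in the cytosol, fell from 277.7 ± 85.4 to 73.6 ± 22.9 CPM on ketogenic diet (-1.92 ± 0.24, adjusted p = 0.000127). Aacs also fell on high-fat diet, to 125.9 ± 16.9 CPM (-1.14 ± 0.24, adjusted p = 0.00592). Of 17 genes of coenzyme A synthesis, breakdown and transport, 4 rose and none fell on high-fat diet, and 3 rose and 1 fell on ketogenic diet. Vnn1, the pantetheinase that recovers pantothenate from coenzyme A breakdown, rose from 10.5 ± 4.95 to 126 ± 21.3 CPM on high-fat and 157 ± 43.6 CPM on ketogenic diet (log2 fold changes 3.59 ± 0.31, adjusted p = 1.46e-05, and 3.90 ± 0.31, adjusted p = 6.02e-06).

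Peroxisomes and mitochondria, which hold some of these thioesterases, also oxidise acyl-CoAs. Of 20 genes of peroxisomal acyl-CoA oxidation and transport 14 rose on high-fat and 13 on ketogenic diet, and none fell, with median log2 fold changes of 0.84 and 1.01. Of 17 genes of mitochondrial acyl-CoA oxidation 11 and 12 rose and none fell, with medians of 0.50 and 0.77. In dicarboxylic acid and omega oxidation, which makes substrates of Acot4, 5 of 12 rose and 2 fell on high-fat diet, and 6 rose and 1 fell on ketogenic diet. The fatty aldehyde dehydrogenase Aldh3a2 of that list went from 210.5 ± 61.8 to 852 ± 127 CPM on high-fat diet (log2 fold change 2.02 ± 0.19, adjusted p = 1.86e-05). Of 12 binding proteins 3 rose and 1 fell on high-fat diet, and 2 rose and 1 fell on ketogenic diet. Pctp, the partner of Acot13, rose on both (log2 fold changes 1.47 ± 0.16, adjusted p = 8.00e-05, and 1.54 ± 0.16, adjusted p = 3.81e-05). Of 17 regulators 2 rose on each diet (Pparg and Nr1i3), while 1 fell on high-fat (Srebf1, a regulator of fatty acid synthesis genes) and 2 on ketogenic diet (Srebf1 and Ppard), counts of 1 or 2 genes that are not set apart from those shares. No gene of these lists was called between the fat-rich diets.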

How the data were processed

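Liver RNA was measured in 15 libraries, with poly(A) selection and a kit that keeps strand, per the labels' protocols. The authors deposited a table of raw counts, in whole numbers, with 1 row per Ensembl gene. Per the submitters' processing notes, the tools were STAR 2.7.9a, cutadapt 1.16, DESeq2 1.36.0 and featureCounts 1.6 and the build GRCm39, with no role stated. Symbols came from GENCODE names on GRCm38 and matched 91.39% of IDs. No coordinates come from the count table.

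A filter on low counts (filterByExpr of edgeR 4.0.16, with a minimum total of 15 and a minimum count of 10) preceded TMM scaling, with factors of 0.886 to 1.215. All 3 diets entered 1 fit (estimateDisp, robust glmQLFit, two-sided glmQLFTest, R 4.3.3). The Benjamini-Hochberg method adjusted p over 14627 genes, with 0.05 as threshold. The SE is the absolute log2 fold change over the square root of F. The fit was checked on simulated counts.

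The members and lists were chosen with earlier results of these data known. All members are named. From each list, genes with the smallest adjusted p in each direction, up to 2 per comparison, were eligible to be named, and part of these are printed. Neighbours were the 5 genes with the highest r among 11657 genes with a mean of at least 1 CPM. Gene lists cover other thioesterases, acyl-CoA synthetases, coenzyme A metabolism, binding proteins, peroxisomal, mitochondrial and omega oxidation, and regulators. Marker sums are printed for hepatocytes, Kupffer cells, other macrophages, stellate cells, adipocytes, cholangiocytes, pancreatic acinar cells, neutrophils, and T and NK cells. Coding sequences were aligned in place of proteins. Alternatives included DESeq2 1.42.0, other scalings, filters and sample sets, and each library left out in turn.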

Additional observations from a re-analysis of the deposited data

Results flagged for a closer look

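Dixon's test was applied to the CPM of the 10 genes within each diet, 30 groups in all, and chance alone marks about 5% of groups. It marked 2 libraries as far from the rest of their diet. Acot7 stood at 31.0 CPM in control replicate 5, the highest of 4, with a gap to the next library of 0.847 of the whole range. Acot11 stood at 19.9 CPM in ketogenic replicate 5, the highest of 5, with a gap of 0.795 of the range. That library also had the highest Acot3 and Acot9 and the lowest Acot1, Acot8 and Acot12 among the ketogenic libraries. Its 5 cholangiocyte markers, which share Spp1 with the lipid-associated and monocyte-derived macrophage list, summed to 244 CPM beside a median of 57.8 CPM on that diet. Other lists also stood above that diet's medians there: Kupffer cells at 974 beside 294 CPM and those macrophages at 949 beside 194 CPM. Stellate cells and fibroblasts stood at 836 beside 372 CPM, and T and NK cells at 21.1 beside 4.93 CPM. Hepatocyte (84181 beside 107410 CPM) and adipocyte markers (36.6 beside 86.7 CPM) were among those below. The part of these in the Acot11 value was not tested.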

How the results depend on the processing

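Each of 30 fold changes was recomputed under 24 alternatives, 14 of which left out a library. Of the 12 called, 6 kept their call and direction in all of them: Acot1, Acot2 and Acot4 against control on both diets. None of the 12 changed sign. The number of members called ranged from 4 to 7 for high-fat and 4 to 8 for ketogenic against control (main value 6 for both), and with single libraries left out from 4 to 7 and from 5 to 8. For ketogenic against high-fat it was 0 to 1 with single libraries left out. It was also 1, Acot11 (-1.03, adjusted p = 0.0192), with high-fat replicate 1 and ketogenic replicate 5 left out together, an alternative chosen after seeing the data. The Acot8 rise lost its call with library numbers of 13 and above only, on high-fat (adjusted p = 0.0771) and ketogenic diet (0.0611), as did the fall of Acot11 (0.0751), which was also lost with library totals in place of TMM (0.0736) and with no filter (0.0735). Acot9 passed on high-fat diet in a fit of those 2 diets only (0.0176), and on ketogenic diet with DESeq2 (0.0334), library totals (0.0489) or control replicate 1 included (0.0292), and Acot12 on ketogenic diet with library totals (0.0146). Library totals moved the median gene to 0.134 on high-fat and 0.208 on ketogenic diet. The summed levels were 267.8, 521.1 and 496.8 CPM on control, high-fat and ketogenic diet with library totals, within 1 SD of the values above, while shares within a library cannot change with its scaling. Per kilobase the share of Acot1 to Acot4 was 10.3%, 27.9% and 28.3%. Counts over all genes ranged from 934 to 3239, 795 to 2367 and 0 to 636 for the 3 comparisons, and DESeq2 called 171 in the last.

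The labels do not say that replicate numbers pair the samples. Over 13 same-numbered pairs r of the deviations from the diet means ran from -0.404 to 0.418, and 3 were over 0.1. Such correlations cannot settle whether the samples were paired. With the replicate number as a block 5, 6 and 0 members were called, and Acot8 on high-fat diet was lost (adjusted p = 0.058). The causes of these changes were not tested. Precision differed by gene: against control on high-fat diet the SE was 0.44 for Acot2 and 0.12 for Acot12.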

Other observations

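Control replicate 1, which the submitters excluded as contaminated, belongs in no comparison. Scaled by library totals, it held 44.8 CPM of Acot3 (987 counts), where the other controls reached at most 8.03 CPM and the high-fat libraries 59.7 CPM. Acot4 stood at 131 CPM, beside at most 57.1 CPM in the other controls. Acot1 (23.1 CPM) and Acot2 (4.63 CPM) were also above all other controls (at most 13.9 and 2.02 CPM), and Acot11 (11.98 CPM) was below their maximum of 29.4 CPM. Acot12 (137 CPM), Acot8 (12.9 CPM) and Acot13 (43.4 CPM) also lay above the maximum of the other controls (119.6, 12.3 and 42.1 CPM). Acot7 and Acot9, at 24.2 and 2.86 CPM, lay below the maximum of the other controls (27.4 and 3.53 CPM).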
